A study of Oryza sativa with 156 samples.

Results

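Leaves of rice under severe drought were compared with leaves of rice under moderate drought on each of days 6 to 12 of treatment. The libraries were taken by their treatment and day labels and not by any measured value. All 21 severe drought libraries and all 21 moderate drought libraries of those days entered, 3 for each treatment and day, which is 42 of the 156 libraries of the series. Every plant was of the cultivar IR64, a lowland indica rice, and every library was made from polyadenylated leaf RNA with a strand-preserving kit. Germinated seeds were grown singly in pots of calcined clay with automatic irrigation, in a growth chamber. For severe drought the pots stood higher than the hose, so that water drained from them faster. The protocol states a stop of the water supply 14 days after sowing in its description of moderate drought, where the pots drained through the hose, and for severe drought adds only the height of the pots. The series also holds irrigated controls of both courses, of which the 9 of the severe course and the 9 of the moderate course on days 0 to 2 are used below. The study's stated subject is genes from which the level of drought that a rice plant perceives can be predicted, and the contrast of severe with moderate drought asks how leaf transcript levels differ between drought intensities at a matched number of days.

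Drying soil lowers the water potential of leaves and raises their content of abscisic acid, the hormone that closes stomata and switches on many stress-response genes. In rice leaves, genes for protective proteins such as dehydrins and late embryogenesis abundant proteins commonly rise under drought, while genes of photosynthesis and growth commonly fall. How far such genes move depends on how dry the soil is and for how long.

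The count table identifies genes by locus identifier alone and pairs none of its 55986 identifiers with a name, and 0 of them matched the gene name table at hand. Genes are therefore given by identifier, without a role, and no list of leaf or pathway genes could be placed on the table, so the leaf label was not checked against marker genes. Library totals were 10.8 to 24.2 M counts in severe drought (median 17.4) and 13.5 to 25.2 M in moderate drought (median 17.8). The series splits into 2 sets of libraries by a score over 3 genes, the mean of their log2 CPM (counts scaled to a common library total), and all 42 libraries lay in the lower set. Their scores were 2.73 to 4.41 in severe drought and 3.30 to 4.15 in moderate drought, where the lower set ends at 5.35 and the higher set begins at 6.15. The severe course's irrigated controls of days 6 to 12 all lay in the higher set (0 of 21 in the lower one), so they are not used as a baseline for severity. The 2 courses were separate experiments, so severity cannot be told apart from whatever else differed between courses. Whether the 3 libraries of a group were made from different plants is not in the labels, and the p-values therefore describe only how these libraries spread, which may be technical in part. In bulk leaf RNA, fewer cells of a type and less RNA per cell cannot be told apart.

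The libraries of the 2 treatments overlapped in a principal component analysis of log2 CPM. Component 1 held 18.6% of the variance, and 13 of 21 severe and 6 of 21 moderate libraries lay above 0 on it. Component 2 held 11.5%, with 15 of 21 severe and 7 of 21 moderate libraries above 0. The 3 severe libraries of day 6 lay at both edges of component 1, so libraries of 1 group could be as far apart as the treatments.

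**Figure D1:**
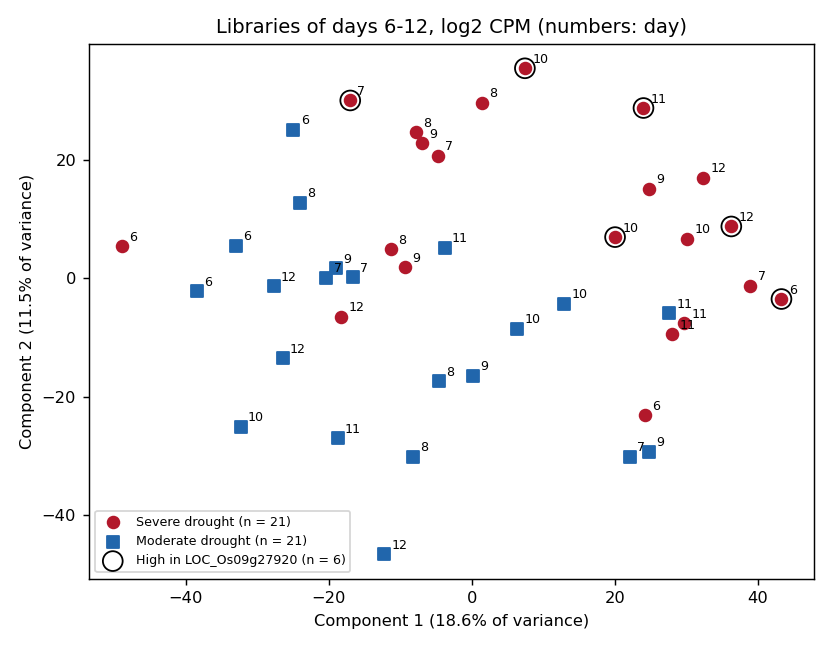
Principal components 1 and 2 of log2 CPM in the 42 libraries of days 6 to 12. Red circles are severe drought libraries, blue squares are moderate drought libraries, the number beside each point is its day, and black rings mark the 6 severe libraries high in LOC_Os09g27920. Severe libraries lie more often to the upper right (13 of 21 above 0 on component 1, against 6 of 21 moderate), with overlap.

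A set of 6 severe libraries stood apart in a group of genes with neighbouring identifiers. Severity contrasts, and their change over the days, were also fitted without them. Contrasts with controls, contrasts within 1 treatment and measures per library were not. LOC_Os09g27920 had 7.24 to 26.5 CPM in 6 severe libraries (day 6 replicate 2, day 7 replicate 1, day 10 replicates 1 and 2, day 11 replicate 2 and day 12 replicate 3). It had 0.773 to 3.44 CPM in the other 15 severe libraries and 0.650 to 3.48 CPM in the 21 moderate libraries. LOC_Os09g32620 had 27.9 to 62.6 CPM in the same 6 libraries, 6.51 to 9.46 CPM in the other 15 severe libraries and 6.31 to 13.7 CPM in the moderate libraries. No other library came near the lowest of the 6 in either gene. Over the 42 libraries, 32 genes had a Pearson correlation of at least 0.7 in size with LOC_Os09g32620 on the log2 scale, 22 positive and 10 negative, which is a description of libraries that share these 6. Of these 32, 29 (90.6%) carried identifiers that begin LOC_Os09g, all between LOC_Os09g26400 and LOC_Os09g32410, against 6.66% of all genes tested. Across the whole series, LOC_Os09g32620 was at this high level in 12 of 39 severe drought libraries and 13 of 39 irrigated libraries of the severe course, and in 0 of 39 moderate drought and 0 of 39 irrigated libraries of the moderate course. The high level therefore occurred in irrigated plants of the severe course about as often as in its droughted plants.

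**Figure D2:**
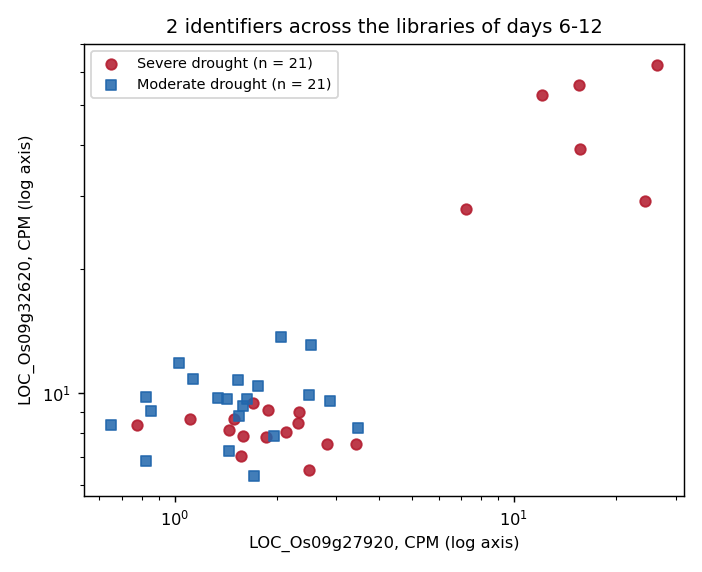
LOC_Os09g32620 against LOC_Os09g27920 in each of the 42 libraries, in CPM on log axes. Red circles are severe and blue squares moderate drought libraries. The 6 severe libraries at the upper right (7.24 to 26.5 and 27.9 to 62.6 CPM) are apart from the other 15 severe and all 21 moderate libraries.

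Averaged over days 6 to 12, many leaf transcripts differed between severe and moderate drought, mostly by small amounts. In edgeR's quasi-likelihood test with Benjamini-Hochberg adjustment, 3673 of 18179 genes tested (20.2%) passed an adjusted p of 0.05 and are called below. Of these, 1973 were higher (10.9% of genes tested) and 1700 lower (9.35%) in severe drought. The median log2 fold change of the called genes was 0.26 among those higher and -0.29 among those lower in severe drought, and 127 (0.699% of genes tested) changed at least 2-fold, 63 higher and 64 lower. The sign of the difference held from day to day in most called genes, since 3383 of 3673 had the same sign on at least 6 of the 7 days. All 7 days agreed in sign for 2015 of the 3673 called genes (54.9%), against 2793 of all 18179 genes tested (15.4%), and the call was made from the same libraries. No gene had all 21 severe libraries above, or all below, the 21 moderate ones (0 of 18179). In 74 genes (0.407%) the 3 severe libraries of a day lay wholly on the same side of the 3 moderate ones on at least 5 days, and 6 was the most days for any gene.

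Without the 6 severe libraries described above, 1638 genes were called on days 6 to 12, 698 higher and 940 lower, of which 103 changed at least 2-fold (30 higher, 73 lower). Most of these had been called before, 1495 of 1638 in the same direction. That fit has 15 severe libraries, and only 1 on day 10. Leaving out all libraries of replicate number 1, 2 or 3 left 1268, 534 and 2146 calls, and leaving out day 12 left 2120. Leaving out single libraries left 3012 to 4338.

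**Figure D3:**
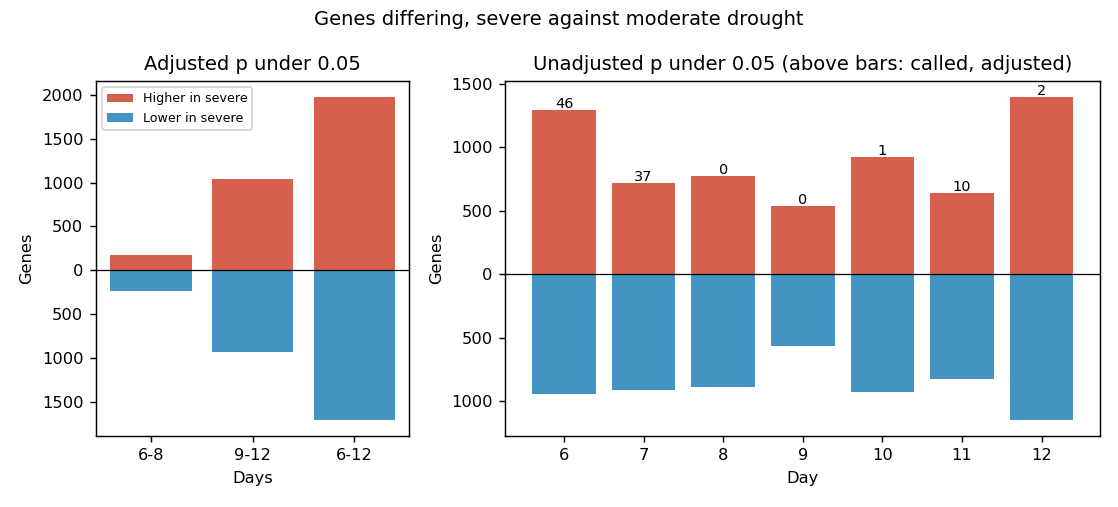
Genes higher (red, above 0) and lower (blue, below 0) in severe than in moderate drought. Left, genes at an adjusted p under 0.05 for the mean over days 6-8, 9-12 and 6-12. Right, genes at an unadjusted p under 0.05 on single days, with the number at an adjusted p under 0.05 above each bar. A share of about 0.05 of genes tested would pass the unadjusted threshold with no difference in any gene. Calls numbered 406 on days 6-8, 1968 on days 9-12 and 3673 on days 6-12, and on single days at most 46.

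Only called genes averaging 1 or more on the log2 CPM scale, with 1 direction on all days, are named here. The largest rises over days 6 to 12 were in LOC_Os09g34250 and LOC_Os09g27920, and the largest falls in LOC_Os05g03640 and LOC_Os07g35940. LOC_Os09g34250 had 0.502 to 28.5 CPM in severe drought (median 4.34) and 0.191 to 4.21 CPM in moderate drought (median 1.02). The ranges overlapped, and the mean was 5.24 ± 5.94 CPM in severe drought against 1.33 ± 0.994 CPM in moderate drought (SD, n = 21 each). Its log2 fold change was 2.04 (SE 0.37, edgeR adjusted p = 0.000541), and without replicate number 2 it was 1.55 with an adjusted p of 0.0598. LOC_Os09g27920 had a log2 fold change of 1.68 (SE 0.40, edgeR adjusted p = 0.0045), which rested on the 6 libraries: without them it was 0.13 with an adjusted p of 0.699. The 6 were picked for a high level of LOC_Os09g32620 and are the only libraries high in LOC_Os09g27920. That loss was therefore fixed in advance and is no separate test.

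LOC_Os05g03640 had 0.477 to 7.02 CPM in severe drought (median 1.85) and 1.30 to 11.7 CPM in moderate drought (median 5.56). The ranges overlapped, most fully on day 6, when the severe libraries were at 4.82, 2.24 and 7.02 CPM and the moderate ones at 6.02, 6.02 and 5.56 CPM. On day 10 the groups were far apart, at 0.972, 0.492 and 0.628 CPM in severe drought against 7.98, 3.60 and 3.80 CPM in moderate drought. Its log2 fold change over days 6 to 12 was -1.57 (SE 0.25, edgeR adjusted p = 0.000169), and it stayed between -1.78 and -1.36 and called in all 62 other settings run for it.

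LOC_Os07g35940 fell by the same amount, -1.57 on the log2 scale (SE 0.39, edgeR adjusted p = 0.00577), but less evenly. It had 0.332 to 9.42 CPM in severe drought (median 0.942) and 0.526 to 19.5 CPM in moderate drought (median 4.41). Day 12 was the clearest day, with 3.13, 0.703 and 0.687 CPM in severe drought against 12.8, 19.5 and 17.9 CPM in moderate drought. Without day 12 the log2 fold change was -1.28 (adjusted p = 0.0562), and without the 6 libraries it was -1.48 (adjusted p = 0.0533). Without replicate number 1 it was -0.95 (adjusted p = 0.186), and without replicate number 2 it was -1.48 (adjusted p = 0.0913). The next 8 genes in rank had log2 fold changes of 0.91 to 1.44 among those higher and of -1.24 to -0.98 among those lower in severe drought.

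**Figure D4:**
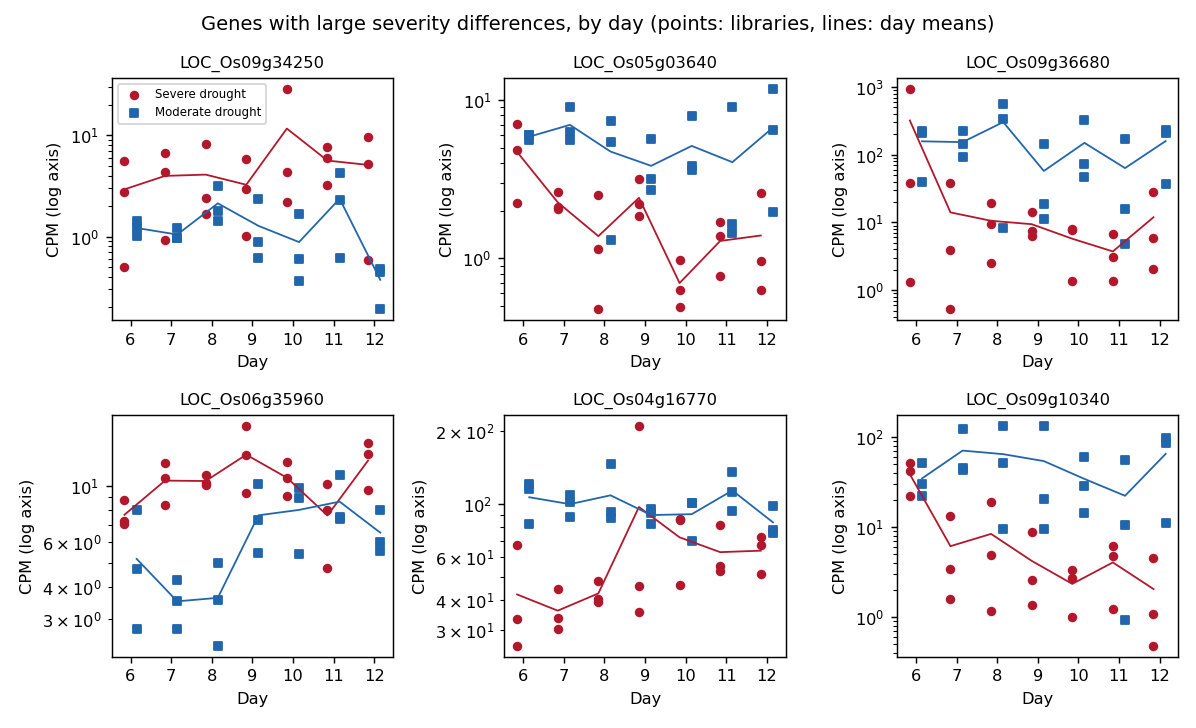
CPM, on log axes, of 6 genes by day in severe drought (red circles) and moderate drought (blue squares). Points are libraries, 3 per treatment and day, and lines join the day means. LOC_Os09g34250 and LOC_Os06g35960 lie mostly higher in severe drought, and LOC_Os05g03640, LOC_Os09g36680, LOC_Os04g16770 and LOC_Os09g10340 mostly lower, with overlap on day 6 for several.

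The levels of these genes can be set beside irrigated leaves of the moderate course, which lie in the same library set. The step between the 2 droughts is fixed by how the genes were chosen. On the CPM scale of all libraries, the median of LOC_Os06g35960 over days 6 to 12 was 10.3 in severe drought, 5.76 in moderate drought and 2.28 in moderate course controls (n = 21 each). LOC_Os09g34250 had medians of 4.36, 1.03 and 0.817 CPM in that order of groups, but severe course controls of days 0 to 2 had 4.33 CPM, close to severe drought. The falling genes ran the other way. LOC_Os09g36680 had a median of 6.90 CPM in severe drought, 146 CPM in moderate drought and 1604 CPM in moderate course controls. LOC_Os09g10340 had 3.46, 43.2 and 82.1 CPM, and LOC_Os05g03640 1.87, 5.67 and 7.17 CPM, again in that order. Severe course controls of days 0 to 2 had medians of 236 CPM for LOC_Os09g36680, 17.8 CPM for LOC_Os09g10340 and 3.24 CPM for LOC_Os05g03640, against 2090, 158 and 9.76 CPM in moderate course controls of those days. Severe course controls of days 6 to 12, in the other library set, had 636, 38.0 and 6.16 CPM in the same order. They had 0.929 CPM of LOC_Os09g34250 and 2.71 CPM of LOC_Os06g35960. Among severe drought, moderate drought and moderate course controls of days 6 to 12, moderate drought had the highest medians of LOC_Os04g16770 and LOC_Os05g35330. LOC_Os04g16770 had medians of 48.3 CPM in severe drought, 98.4 CPM in moderate drought and 79.4 CPM in moderate course controls. LOC_Os05g35330 had 1.79, 3.46 and 2.74 CPM in that order. Severe course controls of days 6 to 12, in the other library set, had 798 and 13.3 CPM of these 2 genes. Those of days 0 to 2 had 81.5 and 4.85 CPM, against 99.8 and 2.19 CPM in moderate course controls of those days. These orders are descriptions, were not tested, and cannot be told apart from the difference between courses.

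Irrigated leaves of the 2 courses, on days 0 to 2, differed in nearly as many genes as the droughts did later. Between irrigated controls of days 0 to 2, severe course minus moderate course, 3452 of 18479 genes tested (18.7%) were called, 1821 higher (9.85%) and 1631 lower (8.83%) in the severe course. Without replicate number 1, 249 were called. Among genes that met the rule for naming, the largest rises there were in LOC_Os09g27920 and LOC_Os09g32620, the 2 genes that mark the libraries standing apart. They were 3.04 on the log2 scale (SE 0.64, edgeR adjusted p = 0.00107) and 2.23 (SE 0.46, edgeR adjusted p = 0.000917). Severe course controls of days 0 to 2 reached 87.9 CPM of LOC_Os09g32620 (median 10.2). This contrast was not refitted without the libraries at that high level. The controls in it all lay in the lower library set. Their scores were 3.20 to 5.35 in the severe course and 2.90 to 3.77 in the moderate course. The library at 5.35 is the highest of the lower set, and its part in the calls was not tested. The 2 contrasts share no library, and their directions matched little more often than for all genes. Of 3671 genes called for severity and tested in both, 408 were called in the same direction between the controls and 277 in the opposite direction. Those 408 are 11.1% of the severity list and 12.0% of the control list. Of the 3671, 1918 (52.2%) had the same sign in the controls, against 50.5% of all genes tested. Taken over genes, not replicates, the 2 log2 fold changes had a Pearson correlation of 0.18 and a Spearman correlation of -0.01.

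The difference between severity and the control difference of the courses was tested in a fit of 60 libraries, in which 3597 of 18479 genes (19.5%) were called. Of the 3671 severity genes, 1239 were also called there with the same sign, 678 higher and 561 lower in severe drought. Of these, 962 were not called between the controls, and the other 277 were called there in the opposite direction. Of all 3671 severity genes, 81.34% were not called between the controls, against 81.32% of all genes tested. None of the 408 genes called in the same direction between the controls was called in this contrast with the sign of its severity difference. So none of the 3671 was shown to exceed a called control difference of its own direction. LOC_Os09g32620, one of the 408, was called with the opposite sign (-1.49, SE 0.54, edgeR adjusted p = 0.0463). Its severity difference of 0.75 was smaller than its control difference of 2.23. Without replicate number 1, 42 genes in all were called in that contrast. Among 126 genes that changed at least 2-fold with severity, 27 passed it, 7 higher and 20 lower. LOC_Os06g35960 was one of the 1239, with a severity minus control difference of 1.00 on the log2 scale (SE 0.26, edgeR adjusted p = 0.00629) and a control difference of -0.20 (adjusted p = 0.581). LOC_Os07g35940 was higher in the severe course among controls, by 1.87 (adjusted p = 0.0377), and lower in severe drought, with a difference between the contrasts of -3.45 (SE 0.75, adjusted p = 0.00176). LOC_Os05g03640 was already lower in the severe course among controls, by -1.23 (adjusted p = 0.0123), and its severity difference was not shown to exceed this (-0.35, SE 0.44, adjusted p = 0.607). LOC_Os09g34250 had 1.30 among controls (adjusted p = 0.0451) and a difference of 0.73 between the contrasts (adjusted p = 0.394). LOC_Os09g10340 was lower in the severe course among controls as well, by -1.83 (adjusted p = 0.0259), with a difference between the contrasts of -1.21 (SE 0.71, adjusted p = 0.232). For LOC_Os09g36680 the control difference was -0.98 (adjusted p = 0.422) and the difference between the contrasts -2.23 (SE 1.00, adjusted p = 0.109).

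Days 9 to 12 held more called genes than days 6 to 8. On days 9 to 12, 1968 genes (10.8%) were called, 1041 higher (5.73%) and 927 lower (5.1%) in severe drought, from 12 libraries per treatment. On days 6 to 8, 406 genes (2.23%) were called, 176 higher (0.968%) and 230 lower (1.27%), from 9 libraries per treatment. The stretches differ in number of libraries, and the counts were not tested against each other. Changes of at least 2-fold were called in 164 genes (0.902%) on days 9 to 12, 76 higher and 88 lower, and in 60 genes (0.33%) on days 6 to 8, 16 higher and 44 lower.

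These counts moved with single libraries. Without the 6 severe libraries, 102 genes (33 higher, 69 lower) were called on days 9 to 12 and 470 (176 higher, 294 lower) on days 6 to 8. Without 1 library at a time, days 9 to 12 gave 943 (severe day 11 replicate 2), 964 (severe day 12 replicate 2), 977 (moderate day 11 replicate 1), 1001 (severe day 9 replicate 3), 1037 (moderate day 10 replicate 1), 1132 (severe day 10 replicate 2), 1162 (severe day 12 replicate 3), 1239 (moderate day 12 replicate 1) and 3030 (severe day 12 replicate 1). On days 6 to 8, fewer genes were called without severe day 7 replicate 2 (155), moderate day 7 replicate 2 (185), moderate day 6 replicate 1 (200), severe day 8 replicate 2 (210), moderate day 8 replicate 3 (232), severe day 6 replicate 1 (255) and severe day 6 replicate 2 (256). More were called without moderate day 7 replicate 3 (711), severe day 6 replicate 3 (797) and severe day 7 replicate 1 (846).

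The 2 stretches share no library, and their differences ran the same way more often than not. Called in both, in the same direction, were 132 genes, 65 higher and 67 lower, which are 6.71% of the list of days 9 to 12 and 32.5% of the list of days 6 to 8, and 13 genes were called in opposite directions. The signs matched for 89.6% of the 1968 genes of days 9 to 12, for 83.3% of the 406 genes of days 6 to 8 and for 69.1% of all genes tested. Across genes the log2 fold changes of the 2 stretches had a Pearson correlation of 0.53 and a Spearman correlation of 0.48.

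Genes of the early list differed less on days 9 to 12 than on days 6 to 8. The 176 genes higher in severe drought on days 6 to 8 had median log2 fold changes of 0.43, 0.43 and 0.44 on days 6, 7 and 8, and of 0.21, 0.17, 0.13 and 0.23 on days 9, 10, 11 and 12. The 230 genes lower on days 6 to 8 had medians of -0.51, -0.59 and -0.41 on those days, and then of -0.20, -0.11, -0.14 and -0.28. Read the other way, the 1041 genes higher on days 9 to 12 had medians of 0.09, 0.19 and 0.24 on days 6, 7 and 8, and the 927 lower ones -0.08, -0.20 and -0.24. The median of all genes tested lay between 0.003 and 0.013 on each day. The larger values on the days that chose a list follow in part from the choice.

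On days 9 to 12 the largest differences were falls. LOC_Os09g36680 had 1.35 to 27.8 CPM in severe drought (median 6.58) and 4.86 to 329 CPM in moderate drought (median 60.0, n = 12 each). On day 12 the severe libraries were at 27.8, 2.05 and 5.92 CPM and the moderate ones at 211, 230 and 36.7 CPM, with no overlap. Its log2 fold change was -3.79 (SE 0.80, edgeR adjusted p = 0.00466). Day 6 went the other way in the mean through 1 library: the severe values were 38.4, 1.33 and 922 CPM, against 207, 227 and 40.2 CPM in moderate drought. LOC_Os09g10340 had 0.476 to 8.69 CPM in severe drought (median 2.60) and 0.915 to 132 CPM in moderate drought (median 24.4), a log2 fold change of -3.74 (SE 0.60, edgeR adjusted p = 0.000804). On day 6 its 2 groups overlapped fully, at 42.2, 22.1 and 51.3 CPM in severe drought and 51.6, 30.2 and 22.1 CPM in moderate drought. Without the 6 severe libraries the log2 fold changes were -3.49 for LOC_Os09g36680 (adjusted p = 0.0831) and -3.45 for LOC_Os09g10340 (adjusted p = 0.0519), close to those with them but no longer under the threshold. Without replicate number 1 or 2, LOC_Os09g36680 had adjusted p-values of 0.0781 and 0.0528.

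Among genes that met the rule for naming, the largest rises of days 9 to 12 were in the same 2 genes as over all days. LOC_Os09g34250 had 0.584 to 28.5 CPM in severe drought (median 4.76) and 0.191 to 4.21 CPM in moderate drought (median 0.610), a log2 fold change of 2.54 (SE 0.49, edgeR adjusted p = 0.00276). Without the 6 libraries it was 1.68 with an adjusted p of 0.109. LOC_Os09g27920 had a log2 fold change of 2.02 (SE 0.53, edgeR adjusted p = 0.017), against 0.39 (adjusted p = 0.437) without them and 1.33 (adjusted p = 0.101) without severe day 11 replicate 2 alone. Here too the loss without the 6 libraries follows from how they were picked. The next 8 genes in rank had log2 fold changes of 0.94 to 1.69 among those higher and of -2.23 to -1.41 among those lower in severe drought.

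On days 6 to 8 the named genes overlapped less between treatments. LOC_Os06g35960 had 7.08 to 12.3 CPM in severe drought (median 10.0) and 2.36 to 8.05 CPM in moderate drought (median 3.56, n = 9 each). On day 7 the severe libraries were at 8.42, 10.7 and 12.3 CPM and the moderate ones at 3.55, 4.29 and 2.74 CPM. The log2 fold change was 1.23 (SE 0.19, edgeR adjusted p = 0.000324). On days 9 to 12 it was 0.49 (SE 0.15, adjusted p = 0.0349), and the change between the stretches was not called (-0.74, SE 0.24, adjusted p = 0.325). LOC_Os05g38530 had 6.41 to 36.9 CPM in severe drought (median 12.3) and 4.48 to 14.2 CPM in moderate drought (median 7.22), a log2 fold change of 0.96 (SE 0.24, edgeR adjusted p = 0.0276), and it lost its call in 10 of 55 other settings, 7 of which left out a single library: severe day 6 replicates 1 and 2, severe day 7 replicate 2, severe day 8 replicate 2, moderate day 6 replicate 1 and moderate day 7 replicates 1 and 2.

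LOC_Os04g16770 had 25.9 to 67.3 CPM in severe drought (median 39.4) and 82.3 to 145 CPM in moderate drought (median 102) on days 6 to 8, and the 9 severe libraries all lay below the 9 moderate ones. Its log2 fold change was -1.38 (SE 0.23, edgeR adjusted p = 0.000975). It stayed between -1.61 and -1.24, and called, in all 55 other settings run for it. On days 9 to 12 the log2 fold change was -0.36 (SE 0.19, adjusted p = 0.216), with 1 severe library, day 9 replicate 2, at 209 CPM beside 35.7 and 45.9 CPM in its group. LOC_Os05g35330 had 0.892 to 2.43 CPM in severe drought (median 1.32) and 1.69 to 6.85 CPM in moderate drought (median 3.75), a log2 fold change of -1.38 (SE 0.28, edgeR adjusted p = 0.00723), which without replicate number 1 or 2 had adjusted p-values of 0.168 and 0.15. The next 8 genes in rank had log2 fold changes of 0.76 to 0.90 among those higher and of -1.38 to -1.08 among those lower in severe drought.

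Single days, with 3 libraries per treatment, gave few calls. On day 6, 46 genes (0.253%) were called, 13 higher (0.0715%) and 33 lower (0.182%) in severe drought, and on day 7, 37 genes (0.204%), 7 higher (0.0385%) and 30 lower (0.165%). On day 11, 10 genes (0.055%) were called, 9 higher (0.0495%) and 1 lower (0.0055%). Day 10 gave 1 call (0.0055%), LOC_Os05g46240, and day 12 gave 2 (0.011%), LOC_Os04g48130 and LOC_Os09g35910, both lower in severe drought. Days 8 and 9 had 0 calls in edgeR (0%), and DESeq2 called 42 on day 8 and 0 on day 9. Of 18179 genes tested, 1664 on day 8 and 1100 on day 9 had an unadjusted edgeR p under 0.05. With no difference in any gene, a share of about 0.05 of all genes tested would pass that threshold. Leaving out severe day 6 replicate 3 took day 6 to 784 calls, and leaving out moderate day 7 replicate 3 took day 7 to 7. Days 6, 7 and 11 held 25 (0.138%), 27 (0.149%) and 5 (0.0275%) calls of at least 2-fold. In all, 79 genes were called on at least 1 day, 14 on at least 2 days and none on more than 4.

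The severity difference of some genes changed between the stretches. The change of the severity difference, days 9 to 12 minus days 6 to 8, was called in 55 genes (0.303%), 42 positive (0.231%) and 13 negative (0.0715%), and by at least 2-fold in 22 (0.121%), all positive. Without the 6 severe libraries 24 were called, all of them among the 55. Without replicate number 1, 2 or 3 the counts were 24, 8 and 18. The 42 positive genes had median severity differences of 0.36 on days 9 to 12, where 20 were called higher in severe drought, and of -0.62 on days 6 to 8, where 34 were called lower. A turn of direction was called in both stretches for 13 of the 42. The 13 negative genes had medians of -0.34 on days 9 to 12, where 8 were called lower, and of 0.31 on days 6 to 8, where 5 were called higher, and 0 of them were called in both.

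In means over the stretches, the moderate arm held most of this movement. Between its stretches, days 9 to 12 minus days 6 to 8, the median log2 change of the 42 genes was -0.82 in moderate drought, with 39 of them called there, and 0.20 in severe drought, with 0 called. For the 13 genes it was 0.58 in moderate drought, with 10 called, and -0.23 in severe drought, with 0 called. Means over a stretch do not show swings between its days. In severe drought LOC_Os05g46240, 1 of the 42 genes, averaged 9.90, 44.7 and 17.7 CPM on days 6, 11 and 12. In moderate drought it averaged 34.1, 15.3 and 15.4 CPM on those days. Over all genes tested, 2 were called between the stretches in severe drought (0.011%), both lower on days 9 to 12, and 165 in moderate drought (0.908%), 67 higher (0.369%) and 98 lower (0.539%). DESeq2 called 58 in severe drought and 208 in moderate drought. The 2 in severe drought were LOC_Os02g15540, at 5.37 to 21.7 CPM on days 9 to 12 (median 13.3) against 15.3 to 52.5 CPM on days 6 to 8 (median 25.4), and LOC_Os08g34050, at 2.00 to 3.67 CPM (median 2.66) against 2.98 to 5.74 CPM (median 4.46). Their log2 changes were -1.02 and -0.70, both with an adjusted p of 0.0312, and both lost their call without any 1 of the replicate numbers.

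Among called genes averaging 1 or more in log2 CPM, the moderate arm's largest rises were in LOC_Os05g38290 and LOC_Os09g15670. Its largest falls among them were in LOC_Os01g04800 and LOC_Os08g44590. LOC_Os05g38290 had 10.1 to 26.4 CPM on days 9 to 12 (median 16.7) against 1.55 to 15.6 CPM on days 6 to 8 (median 7.10), a log2 change of 1.36 (SE 0.27, edgeR adjusted p = 0.00565), not called without replicate number 2 or 3 (adjusted p = 0.275 and 0.0756). LOC_Os01g04800 had 0.761 to 2.52 CPM on days 9 to 12 (median 1.44) against 2.04 to 11.0 CPM on days 6 to 8 (median 4.35), a log2 change of -1.65 (SE 0.19, edgeR adjusted p = 1.4e-06). In severe drought the log2 change of LOC_Os01g04800 was 0.13 (adjusted p = 0.883), and its change in the severity difference was called, at 1.79 (SE 0.27, adjusted p = 0.000269).

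LOC_Os08g44590 had a change in the severity difference of 1.87 (SE 0.25, edgeR adjusted p = 6.4e-05), and of 1.52 (adjusted p = 0.0592) without replicate number 3. On days 9 to 12 it had 11.5 to 55.1 CPM in severe drought (median 20.5) and 9.33 to 33.4 CPM in moderate drought (median 13.9). On days 6 to 8 it had 6.66 to 43.0 CPM in severe drought (median 23.3) and 19.3 to 118 CPM in moderate drought (median 45.2). The days differed: on day 6 the severe libraries were at 6.66, 11.5 and 9.87 CPM against 39.2, 45.2 and 50.6 CPM in moderate drought, while on day 11 they were at 46.3, 45.8 and 55.1 CPM against 33.4, 11.4 and 9.33 CPM. On day 9 the groups overlapped, and on day 12 the severe libraries were at 13.6, 13.3 and 13.1 CPM, below the moderate libraries at 16.8, 15.2 and 14.2 CPM (log2 fold change -0.21, edgeR adjusted p = 0.819). LOC_Os04g29680 changed by 2.01 (SE 0.40, edgeR adjusted p = 0.0119), which without the 6 libraries was 1.99 with an adjusted p of 0.108, and which lost its call without replicate number 1 (2.34, adjusted p = 0.148) and without replicate number 3 (1.29, adjusted p = 0.224).

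Of genes with a negative change, LOC_Os03g22200 and LOC_Os09g15670 had the largest, each -0.98 (SE 0.23, edgeR adjusted p = 0.0487), just inside the threshold. Each lost its call in 40 of 55 other settings, most of which left out a single library. LOC_Os09g15670 had 14.2 ± 3.23 CPM in severe drought and 6.18 ± 1.03 CPM in moderate drought on day 6 (SD, n = 3 each), and 13.3 ± 0.519 CPM in severe drought and 15.8 ± 6.11 CPM in moderate drought on day 12.

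**Figure D5:**
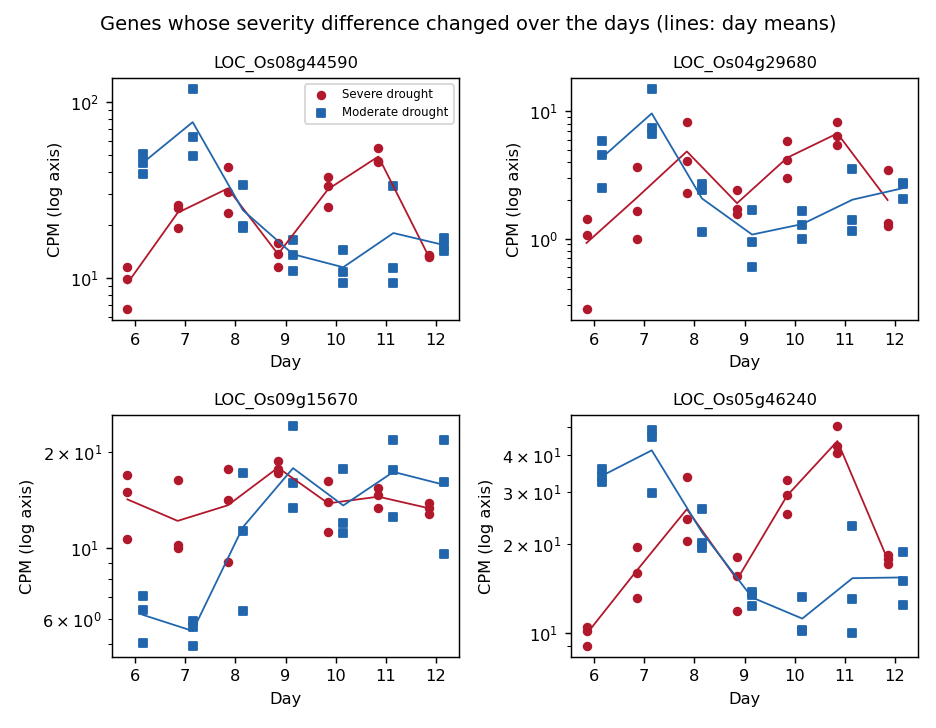
CPM, on log axes, by day for 4 genes whose severity difference changed over the days, in severe drought (red circles) and moderate drought (blue squares). Points are libraries and lines join the day means. LOC_Os08g44590, LOC_Os04g29680 and LOC_Os05g46240 are lower in severe drought on days 6 and 7 and higher on days 10 and 11, and come close on day 9. On day 12 LOC_Os05g46240 averaged 17.7 CPM in severe drought and 15.4 CPM in moderate drought.

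In 6 genes the difference was called lower on day 6 or 7 and higher on day 10 or 11, and 2 of them are described here, chosen after their values were seen. LOC_Os05g46240 was called on 4 days. On day 6 it had 9.90 ± 0.768 CPM in severe drought and 34.1 ± 1.77 CPM in moderate drought (log2 fold change -1.78, SE 0.23, edgeR adjusted p = 0.000109). On day 11 it had 44.7 ± 4.93 CPM in severe drought and 15.3 ± 6.80 CPM in moderate drought (log2 fold change 1.55, SE 0.22, edgeR adjusted p = 0.000416, n = 3 each). LOC_Os03g08500 was lower on day 7, with 163 ± 10.1 CPM in severe drought and 297 ± 24.7 CPM in moderate drought (log2 fold change -0.87, SE 0.11, edgeR adjusted p = 0.000118). It was higher on day 11, with 260 ± 23.4 CPM in severe drought and 148 ± 10.1 CPM in moderate drought (log2 fold change 0.81, SE 0.11, edgeR adjusted p = 0.000416). None of the 6 genes was called on day 8, 9 or 12. On day 12 the log2 fold change was 0.21 for LOC_Os05g46240 (edgeR adjusted p = 0.711). For LOC_Os03g08500 it was 0.08 on day 12 (edgeR adjusted p = 0.793).

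Irrigated leaves of the 2 courses stood apart in these genes on day 11, without a test, and on day 6 or 7 in some of them but not in others. On the CPM scale of all libraries, LOC_Os05g46240 was at 35.0 ± 4.32 CPM in severe course controls and 8.50 ± 1.15 CPM in moderate course controls on day 11 (SD, n = 3 each). On day 6 it was at 8.69 ± 1.89 CPM in severe course controls and 19.5 ± 9.59 CPM in moderate course controls. LOC_Os08g44590 was at 45.9 to 57.4 CPM in severe course controls and 8.47 to 12.6 CPM in moderate course controls on day 11, and at 3.50 to 10.1 CPM and 10.3 to 32.0 CPM on day 6, in the same order. LOC_Os03g08500 was at 192 ± 8.18 CPM in severe course controls and 94.9 ± 26.7 CPM in moderate course controls on day 11, but at 139 ± 24.0 and 138 ± 42.1 CPM on day 7, when the droughts were at 166 ± 10.8 and 304 ± 26.8 CPM on this scale. Among the rest of the 6 genes, LOC_Os01g49830 averaged 24.2 CPM in severe course controls and 21.8 CPM in moderate course controls on day 7, and LOC_Os01g52290 24.1 CPM in severe course controls and 24.5 CPM in moderate course controls on day 6. The severe course controls of these days lie in the other library set, and the part of the course's day in the turned differences was not tested.

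The most abundant genes took a smaller share of counts in severe than in moderate drought. The 100 most abundant genes took 30.5 ± 2.24% of counts in severe drought and 33.1 ± 2.00% in moderate drought (SD, n = 21 each), a difference of -2.64 percentage points (permutation test within days, two-sided, p = 5e-04). After thinning each library to the smallest total, 22316 ± 299 genes were detected per library in severe drought and 22030 ± 297 in moderate drought, a difference of 286 (permutation test within days, two-sided, p = 0.00348). That difference was smaller with at least 5 counts required, at 83.5 (permutation p = 0.057). Without replicate number 1 it was 235 (permutation p = 0.0543). The spread among the 3 libraries of a group, as the median SD of log2 CPM, was 0.209 in severe drought and 0.207 in moderate drought (exact sign-flip permutation test over 7 days, p = 0.922, where the smallest possible p is 0.0156).

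Matching days did not bring the 2 treatments closer than other days did. The root mean square distance between group means of log2 CPM was 0.333 to 0.437 on the same day (median 0.384) and had a median of 0.392 between different days. Days of severe drought were a median of 0.332 apart from each other, and days of moderate drought 0.346. The moderate day nearest to severe days 6, 7, 8, 9, 10, 11 and 12 was day 9, 9, 11, 9, 11, 11 and 9, a mean lag of 0.857 days. The mean lag ranged from -0.571 to 0.571 when libraries of 1 replicate number were left out, so the sign of the lag changed with the libraries used.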

How the data were processed

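Per the submitters' processing notes, STAR aligned the reads to IRGSP-1.0 and featureCounts 2.0.0 counted them per gene. Not given in the sources used here are the STAR version, the strand setting and the handling of reads that match several genes, so overlapping, antisense or near-identical genes can share counts. The authors deposited raw read counts, 1 column per library. Columns were matched to samples by name and 4 that match no sample were left out. No pair of libraries held the same values, and the chi-square per gene was at least 5.24 within groups.

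Genes were kept by filterByExpr (minimum count 10, minimum total 15), libraries were scaled by TMM, and edgeR 4.0.16 (R 4.3.3) quasi-likelihood tests were run on 14 groups of treatment and day with 28 residual degrees of freedom. Contrasts were means over days. A fit of 60 libraries with 20 groups added the controls of days 0 to 2. Adjusted p-values are Benjamini-Hochberg over all genes tested. CPM values are TMM-scaled, log2 CPM uses a prior count of 2, and SE is the log2 fold change over the root of F. Library measures were compared by 100000 shuffles within days.

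On simulated counts for severity over days 6 to 12, run on 18142 genes, 95 of 100 genes changed 1.5-fold and 100 of 100 changed 2-fold were recovered, with 9 of 17942 unchanged genes called. For days 6 to 8, 65 of 100 and 91 of 100 were recovered, for days 9 to 12, 81 of 100 and 96 of 100, and for day 6, 9 of 100 and 56 of 100. The simulated counts had 1 mean per gene over all days and a spread set by abundance alone. They held no day effects and no deviating libraries, so these rates need not hold for the measured libraries.

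Named genes are, per contrast, the 2 largest log2 fold changes each way among called genes that average 1 or more in log2 CPM and keep 1 sign on every day of the stretch. For changes between stretches the signs of single days were not required. The comparison and these choices were made with earlier results of these data known. Alternatives were another scaling (DESeq2 1.42.0 size factors), DESeq2, no filter, a replicate block, all libraries in 1 fit, a 2-fold minimum, and libraries, replicate numbers and days left out.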

Additional observations from a re-analysis of the deposited data

Results flagged for a closer look

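The severity difference itself differed between days 9 to 12 and days 6 to 8 in 55 genes by edgeR's test of the change, and these were picked out because 2 stretches of days gave different effects of the same contrast. Among called genes averaging 1 or more in log2 CPM, the largest positive changes were in LOC_Os04g29680 (2.01) and LOC_Os08g44590 (1.87). Their severity difference had a positive estimate on days 9 to 12 and a negative one on days 6 to 8. The negative one of LOC_Os04g29680 was not called (-1.04, edgeR adjusted p = 0.0552). For LOC_Os03g22200 and LOC_Os09g15670 (each -0.98) the difference was called higher on days 6 to 8 and not called on days 9 to 12 (-0.27 and -0.12, edgeR adjusted p = 0.221 and 0.61). Values by day and without single libraries stand in the results above, and no explanation was tested.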

How the results depend on the processing

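Directions of the named genes held under other settings, and counts of calls did not. Of 994 values of named genes under other settings, 0 changed sign and 132 lost their call. The named genes were chosen as the largest called changes, and many settings left out only 1 library. Sign changes were therefore unlikely from the start, and their absence is no test of direction. Counts on days 6 to 12 stayed within 1.5 times the 3673 with DESeq2 size factors, DESeq2, no filter, all libraries, a replicate block, thinned counts or any single library left out. They were 127 with a 2-fold minimum, 2120 without day 12, 1239 when a call against the controls was also required, 1638 without the 6 severe libraries, 534 to 2146 without 1 replicate number and up to 4338 without 1 library. Single-day calls rest on 3 libraries per treatment, and simulated 1.5-fold changes on day 6 were recovered in 9 of 100 genes. Settings that leave out libraries have fewer samples by construction, and for the others the cause was not tested. The fits without the 6 severe libraries, without 1 library at a time for stretches other than days 6 to 12, and without severe day 6 replicate 3 and moderate day 7 replicate 3 were chosen after seeing the data.

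For days 9 to 12 (1968 calls), no filter gave 1143, a 2-fold minimum 164, the fit without the 6 libraries 102, and leaving libraries out 160 to 3030. For days 6 to 8 (406), no filter gave 217, DESeq2 694, all libraries 712, the replicate block 709, a 2-fold minimum 60, the fit without severe day 6 replicate 3 and moderate day 7 replicate 3 1488, and leaving libraries out 17 to 846. For the change (55), DESeq2 gave 85, the block within day 32, a 2-fold minimum 22, the fit without the 6 libraries 24, and leaving libraries out 8 to 64.

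On single days 6, 7, 8, 10, 11 and 12, DESeq2 called 119, 73, 42, 20, 28 and 79. The fit of all libraries, for days 6 and 8 to 12, called 71, 31, 8, 22, 24 and 71 (49 higher and 22 lower in severe drought on day 12). No filter called 1 on days 8 and 9 and 5 on day 12. A fit of 1 day's 6 libraries called 1 on day 6, 0 on days 7, 11 and 12, and 2 on day 10. Without the 6 severe libraries, days 6 to 12 in turn gave 18, 59, 2, 1, 0, 5 and 0. Leaving libraries out gave 0 to 784 and 1 to 46 for days 6 and 7, and 0 to 2, 0 to 6 and 0 to 1 for days 10, 11 and 12.

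Replicate numbers did not pair the libraries: deviations of same-numbered severe and moderate libraries correlated above 0.1 in 4 of 21 pairs (median 0.004), and 6 of 21 severe libraries were closest to their own number. With a replicate block, calls were 59, 37, 1, 31, 22 and 63 for days 7 to 12 and 9 between stretches in severe drought. With a block within day they were 22, 23, 1, 2, 3 and 5 on days 6 to 11, 0 between stretches in severe drought and 11 in moderate drought. Between stretches in severe drought, DESeq2 gave 58, all libraries 30 and leaving a replicate number out 0 to 3, and in moderate drought the last gave 12 to 85. The controls gave 2276 with no filter and 249 to 2288 without a replicate number, and severity minus controls 42 to 2470.

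The difference in genes detected was 83.5 (permutation p = 0.057) with at least 5 counts and 190 (permutation p = 0.388) without thinning. It was 235 to 363 without a replicate number (permutation p = 0.00161 to 0.0543). The difference in replicate spread was 0.0027, and -0.0034 to 0.0091 without a replicate number.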
